A study of Mus musculus with 8 samples.

Results

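The genes described here are 10 members of the BCL2 family, the proteins that decide whether a cell keeps its mitochondria intact or enters apoptosis. They were the rows of the FPKM table, which scales read counts by transcript length and library total, whose symbol was Bcl2a1a, Bcl2a1b, Bcl2a1d, Bcl2, Bcl2l1, Mcl1, Bax, Bak1, Bcl2l11 or Bid. All 10 were found among the 25124 rows. The cells were bone marrow macrophages of mice, which serve as osteoclast precursor (OCP) cells, grown in M-CSF (30 ng/mL), the cytokine that keeps them alive. The groups were no PRDX1 + no RANKL, PRDX1 + no RANKL (200 nM recombinant peroxiredoxin 1, an antioxidant enzyme given here outside the cell), no PRDX1 + RANKL (100 ng/mL of the cytokine that drives osteoclast formation) and PRDX1 + RANKL, each with 2 libraries taken at 48 h. The labels give C57BL/6 mice of 6 to 8 weeks, whereas the culture methods of the study give the strain as ICR. The labels do not say whether the libraries of a group came from separate animals or cultures, so the p-values measure only the spread between these libraries, which may be technical. The comparisons asked what extracellular PRDX1 did to these genes in the absence and presence of RANKL, and what RANKL did in the absence and presence of PRDX1.

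In the family, the survival proteins BCL-XL (from Bcl2l1), BCL2, MCL1 and A1 (from the Bcl2a1 copies) hold the effectors BAX and BAK in check. Once freed, the effectors open the outer mitochondrial membrane and release cytochrome c, which starts the caspases. BH3-only proteins such as BIM (from Bcl2l11) and BID tip this balance by binding the survival proteins or by acting on the effectors. In macrophages A1 is a known NF-κB target, and in the osteoclast lineage BIM and BCL-XL are known regulators of life span.

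All 6 macrophage markers on the list were detected in every library, but not at like levels. Cd68, a lysosomal protein of macrophages, had a mean of 616 to 854 FPKM in the 4 groups, and Csf1r, the M-CSF receptor, 266 to 508 FPKM. RANKL without PRDX1 lowered 4 of the 6 markers, where 9.96% of all genes were called lower, and in no PRDX1 + RANKL the libraries held 4.22 to 4.89 FPKM of Mertk, a receptor for dying cells, and 7.90 to 9.07 FPKM of Fcgr1, an Fc receptor. Over the 6 macrophage markers on the list, the summed FPKM was 2012 to 2035 in no PRDX1 + no RANKL, 2290 to 2362 in PRDX1 + no RANKL, 1265 to 1384 in no PRDX1 + RANKL and 1701 to 1743 in PRDX1 + RANKL. The 10 osteoclast markers summed to 44.8 to 45.4, 88.1 to 92.4, 1884 to 1987 and 251 to 259 FPKM in the same order, so the osteoclast program was high with RANKL alone and much lower with PRDX1 + RANKL. In such bulk samples, fewer cells of a type and less RNA per cell cannot be told apart, and every difference below is a difference between cultures with these different make-ups. The libraries held 24542578 to 41712983 reads on genes, and no replicate pair agreed within sampling noise. A gene is called higher or lower below where limma's Benjamini-Hochberg adjusted p was under 0.05 and the fold change at least 1.5. Fold changes are on the scale of log2(FPKM + 1), which understates the change of low genes, and SE is the standard error of that fitted value. An exact permutation test of 2 libraries against 2 cannot give a p below 0.333, so single values were tested only within the fit across all genes.

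Bcl2a1 is present in the mouse as near-identical copies on chromosome 9, and the sequences show how alike they are. The 3 coding sequences are each 519 bases long with the stop codon, and they differ at 12 positions in all. Bcl2a1a is the odd one out at 6 of these, Bcl2a1b at 5 and Bcl2a1d at 1. Coding identity was 97.9% between Bcl2a1a and Bcl2a1b, 98.7% between Bcl2a1a and Bcl2a1d, and 98.8% between Bcl2a1b and Bcl2a1d. The first 90 coding bases hold 6 of the 12 positions and are shown because a read over them can tell the copies apart. They are given on the coding strand from the GRCm38 genome (mm10), for Bcl2a1a at chr9:88957051-88957140 (plus strand), Bcl2a1b at chr9:89199360-89199449 (plus strand) and Bcl2a1d at chr9:88731630-88731719 (minus strand). Capitals mark the positions at which the copies are not all the same.
Bcl2a1a: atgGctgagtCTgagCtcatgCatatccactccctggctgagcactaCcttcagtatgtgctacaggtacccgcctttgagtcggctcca
Bcl2a1b: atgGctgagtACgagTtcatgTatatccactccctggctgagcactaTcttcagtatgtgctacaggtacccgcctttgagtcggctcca
Bcl2a1d: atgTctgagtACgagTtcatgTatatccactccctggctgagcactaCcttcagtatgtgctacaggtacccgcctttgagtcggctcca

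Of all stretches of 100 bases (the read length) in the annotated transcript, 43.5% were also found in another copy for Bcl2a1a, 31.1% for Bcl2a1b and 54.7% for Bcl2a1d. None of these stretches was found in Bcl2a1c. How reads that match more than 1 copy were treated is not given in the sources used here, so the split of reads among the copies is uncertain. Their sum does not depend on that split, but it does on whether such reads were counted at all.

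The sequence just upstream of the copies is shown because the copies differed in how they responded (below) although this stretch is almost the same in all. The 140 bases shown end at the same distance before the start codon in each copy, lie outside the annotated transcripts, and were identical in Bcl2a1a and Bcl2a1b (chr9:88956716-88956855 and chr9:89199025-89199164, both plus strand). In Bcl2a1d (chr9:88731915-88732054, minus strand) they differed from both by 1 base and lacked 6 bases between the marked motifs, so that the stretch of equal length begins 6 bases further upstream. The promoter sequences are RefSeq's for GRCm38.p6, 250 bases before to 50 after each gene's start, and all 10 genes had at least 1 such window. Capitals mark the letters TGANTCA, an AP-1 motif with any base (N) at its centre, and GAGGAAGT, a PU.1 core, each searched on both strands. The centre base is A in each copy.
Bcl2a1a: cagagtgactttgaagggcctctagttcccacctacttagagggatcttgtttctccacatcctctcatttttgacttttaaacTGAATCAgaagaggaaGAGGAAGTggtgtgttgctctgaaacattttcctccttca
Bcl2a1b: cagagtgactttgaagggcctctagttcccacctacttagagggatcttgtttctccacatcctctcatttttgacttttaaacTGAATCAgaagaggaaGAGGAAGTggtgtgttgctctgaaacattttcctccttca
Bcl2a1d: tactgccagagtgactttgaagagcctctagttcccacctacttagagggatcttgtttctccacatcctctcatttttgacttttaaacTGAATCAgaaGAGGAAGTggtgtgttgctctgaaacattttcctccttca

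The PU.1 core was present in the windows of all 3 copies and of Bak1, against 3.20% of all 32851 windows. The AP-1 motif, with any base allowed at its centre, was present in the windows of the 3 copies and of no other member, against 7.81% of all windows. A 10-letter NF-κB motif was found in 1 of the 3 windows of Bcl2l1 and in no window of the other members, against 4.51% of all windows. These are matches of letters only, and a missing match says only that the letters are not in this window.

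Bcl2a1b was the most abundant copy and rose with PRDX1 whether or not RANKL was present. Its FPKM was 16.9 and 17.9 in no PRDX1 + no RANKL, 78.4 and 80.0 in PRDX1 + no RANKL, 11.7 and 13.9 in no PRDX1 + RANKL, and 34.9 and 34.3 in PRDX1 + RANKL. Both PRDX1 groups lay above both groups without it, no 2 groups overlapped, and the smallest of these values rested on 242 reads. PRDX1 raised Bcl2a1b by a log2 fold change of 2.12 without RANKL (SE 0.07, adjusted p = 6.10e-08), from a mean of 17.4 to 79.2 FPKM. With RANKL the log2 fold change was 1.37 (SE 0.07, adjusted p = 5.19e-07). The increase was smaller with RANKL than without it by 0.75 on the log2 scale (interaction -0.75, SE 0.11, adjusted p = 7.30e-04). RANKL lowered the gene in the presence of PRDX1 by a log2 fold change of -1.17 (adjusted p = 1.83e-06), whereas in its absence the value was -0.42 (adjusted p = 7.09e-04), short of the 1.5-fold limit.

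Bcl2a1d followed the same order of groups at lower levels and with a wider spread. It was at 5.84 and 7.86 FPKM in no PRDX1 + no RANKL, 17.5 and 12.9 in PRDX1 + no RANKL, 5.92 and 5.15 in no PRDX1 + RANKL, and 10.4 and 11.8 in PRDX1 + RANKL. The 2 groups without PRDX1 overlapped, and both groups with PRDX1 lay above them. PRDX1 raised it by a log2 fold change of 1.04 without RANKL (SE 0.15, adjusted p = 6.74e-04) and 0.89 with RANKL (SE 0.15, adjusted p = 0.00101). The difference between these increases was -0.16 with a 95% confidence interval of -0.63 to 0.32. RANKL moved Bcl2a1d past the limits in neither setting, with log2 fold changes of -0.25 and -0.41 (adjusted p = 0.173 and 0.0535). The latter was called, at -0.62, when the second library of PRDX1 + no RANKL was left out.

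Bcl2a1a was the copy that RANKL raised. In no PRDX1 + no RANKL it had 0 and 9 reads, or 0 and 0.272 FPKM, and 3 reads would have been 0.128 FPKM in the first library. It was at 1.73 and 2.25 FPKM in PRDX1 + no RANKL, 4.40 and 3.87 in no PRDX1 + RANKL, and 7.82 and 8.82 in PRDX1 + RANKL, from 43 to 293 reads per library. The 4 groups stood apart in that order, and the filter on low values was passed through the 3 treated groups only. RANKL raised Bcl2a1a by a log2 fold change of 2.18 without PRDX1 (SE 0.14, adjusted p = 3.91e-07) and 1.64 with PRDX1 (SE 0.14, adjusted p = 1.06e-05). PRDX1 raised it by 1.40 without RANKL (SE 0.14, adjusted p = 4.88e-05) and 0.86 with RANKL (SE 0.14, adjusted p = 6.26e-04). Against the near-empty control group these sizes depended on the setting. With all libraries the value for RANKL alone ran from 2.04 (quantile normalization) to 4.45 (pseudocount of 0.1) and 5.56 (voom), and that for PRDX1 alone from 1.31 to 3.43 and 4.52 in the same settings. The increase by PRDX1 with RANKL was 0.99 and no longer passed (adjusted p = 0.117) with a pseudocount of 0.1.

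With PRDX1 present, RANKL thus moved Bcl2a1a up and Bcl2a1b down, each past the limits. As a share of the summed FPKM of the 3 copies, Bcl2a1a made up 0.52% ± 0.74 (SD, n = 2) in no PRDX1 + no RANKL, 2.07% ± 0.42 in PRDX1 + no RANKL, 18.4% ± 2.2 in no PRDX1 + RANKL and 15.4% ± 0.93 in PRDX1 + RANKL. These shares carry the uncertainty of the shared reads. With the reads of the copies in the table summed into 1 row, PRDX1 raised the sum by a log2 fold change of 1.93 in the absence of RANKL (adjusted p = 5.00e-08) and 1.22 in its presence (adjusted p = 4.71e-07). RANKL lowered the sum with PRDX1 (-0.81, adjusted p = 9.24e-06) and gave -0.10 without it (adjusted p = 0.201). The summed reads were 518 and 839 in no PRDX1 + no RANKL, 2347 and 2571 in PRDX1 + no RANKL, 466 and 612 in no PRDX1 + RANKL, and 1889 and 1781 in PRDX1 + RANKL. Bcl2a1c, the remaining copy in the table, had 0 reads in both groups without RANKL and 1 and 2 reads over the groups with it.

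Markers of other cells moved with PRDX1 as well. The 8 neutrophil markers on the list summed to 10.4 to 14.3 FPKM in no PRDX1 + no RANKL, 43.4 to 47.7 in PRDX1 + no RANKL, 16.6 to 16.9 in no PRDX1 + RANKL and 35.6 to 39.3 in PRDX1 + RANKL. Of the 6 tested, 5 rose with PRDX1 without RANKL and 4 with RANKL, where 3.8% and 6.03% of all genes were called higher. S100a9 and S100a8 made up most of the sum, at a mean of 19.5 and 17.2 FPKM in PRDX1 + no RANKL, while the defining marker Ly6g had a mean of at most 0.233 FPKM in any group. The 5 stromal markers summed to 7.13 to 9.96 FPKM without PRDX1 and 14.9 to 18.4 FPKM with it. The 5 dendritic cell markers summed to 1.28 to 1.37 FPKM in no PRDX1 + no RANKL, 3.20 to 3.79 in PRDX1 + no RANKL, 2.33 to 2.46 in no PRDX1 + RANKL and 4.58 to 5.56 in PRDX1 + RANKL, and of the 2 tested PRDX1 raised 2 without RANKL and 1 with it, against the same shares of all genes. The 6 lymphocyte markers, of which 1 was at 0 in every library, summed to 0.506 to 0.528, 1.003 to 1.28, 0.370 to 0.735 and 0.776 to 1.04 FPKM in the same order, and were too low to test. The 6 mast cell and basophil markers summed to at most 0.167 FPKM, with 4 of these 6 at 0 in every library. The part of these cells in the Bcl2a1 values was not tested.

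**Figure D1:**
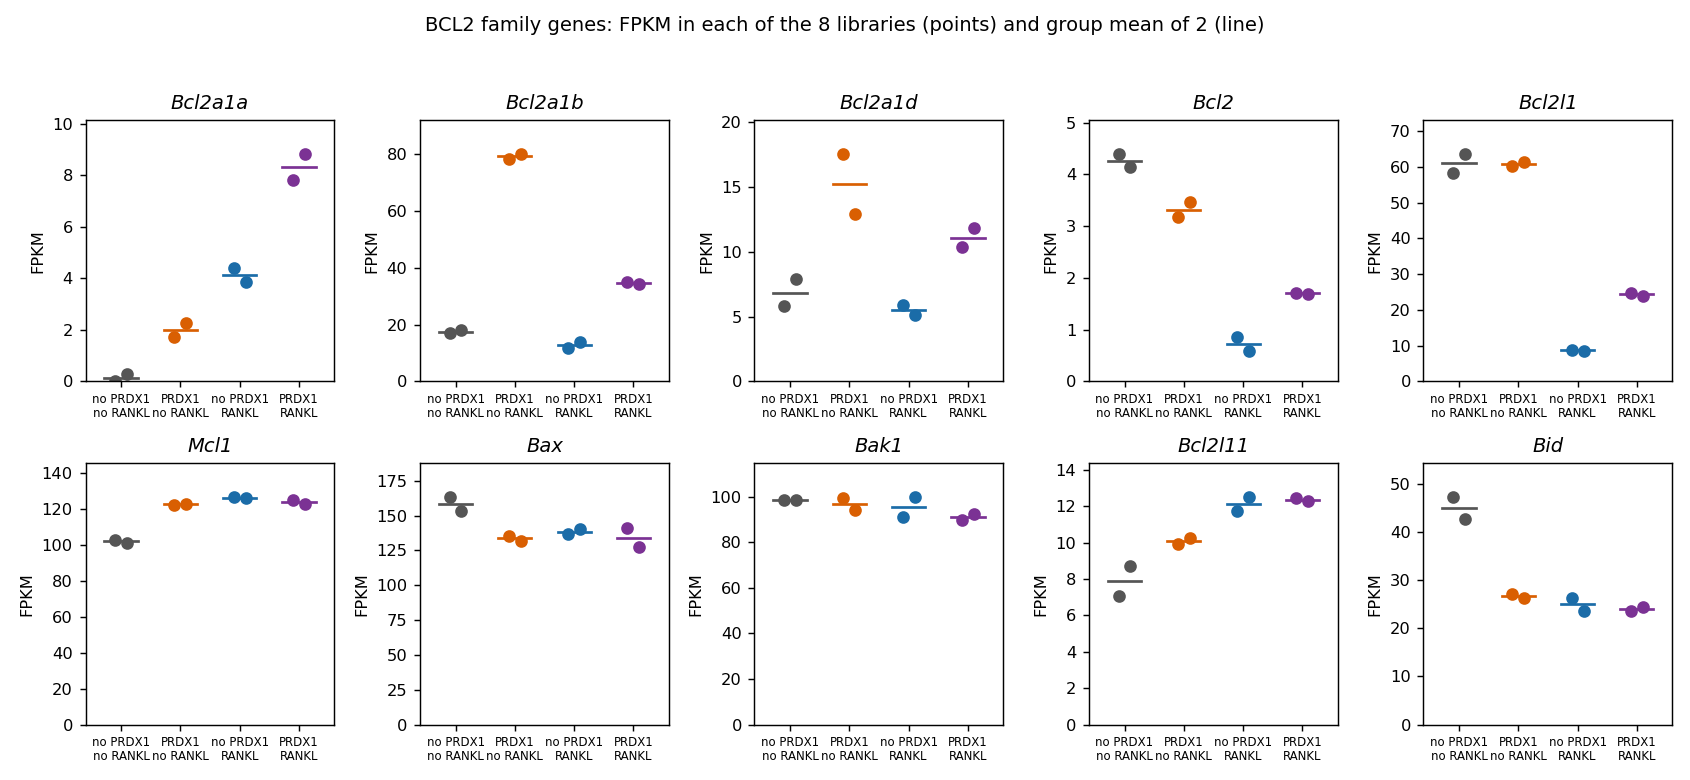
FPKM (y axis, linear from 0) of the 10 genes in the 4 groups (x axis), with 1 point for each library and a line at the mean of 2. Bcl2a1b is highest in PRDX1 + no RANKL (78.4 and 80.0 FPKM), Bcl2a1a in PRDX1 + RANKL (7.82 and 8.82 FPKM), and Bcl2l1 falls from about 61 FPKM in both groups without RANKL to 8.70 FPKM with RANKL alone.

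Bcl2l1, which encodes BCL-XL, had the largest fall of any of the 10 genes and fell less when PRDX1 was present. Its FPKM was 58.4 and 63.6 in no PRDX1 + no RANKL, 60.2 and 61.5 in PRDX1 + no RANKL, 8.77 and 8.64 in no PRDX1 + RANKL, and 24.8 and 24.0 in PRDX1 + RANKL. The 2 groups without RANKL overlapped, the group with RANKL alone was lowest, and PRDX1 + RANKL stood between. RANKL lowered Bcl2l1 by a log2 fold change of -2.67 without PRDX1 (SE 0.06, adjusted p = 2.31e-10), a mean 7.01 times lower in FPKM. With PRDX1 the fall was -1.28 (SE 0.06, adjusted p = 1.59e-07), or 2.49 times in FPKM. The change by PRDX1 was 0.00 without RANKL, with a 95% confidence interval of -0.13 to 0.13, and 1.39 with RANKL (SE 0.06, adjusted p = 6.41e-08). The difference between these changes was itself past the limits, at 1.39 (SE 0.08, adjusted p = 2.81e-06). The same calls were made under each of the other settings tried.

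Bcl2, the founding survival gene of the family, showed the same order with RANKL at much lower levels. It was at 4.39 and 4.14 FPKM in no PRDX1 + no RANKL, 3.17 and 3.47 in PRDX1 + no RANKL, 0.855 and 0.582 in no PRDX1 + RANKL, and 1.71 and 1.70 in PRDX1 + RANKL. No groups overlapped, and the lowest library still held 145 reads. RANKL lowered Bcl2 by a log2 fold change of -1.62 without PRDX1 (SE 0.10, adjusted p = 4.55e-07) and -0.68 with PRDX1 (SE 0.10, adjusted p = 5.94e-04). PRDX1 gave -0.29 without RANKL (adjusted p = 0.0620) and 0.66 with RANKL (SE 0.10, adjusted p = 5.89e-04), and the difference between the values was 0.94 (SE 0.14, adjusted p = 0.00124). The call of the increase with RANKL was lost without the second library of no PRDX1 + RANKL, where the value was 0.54, under the 1.5-fold limit. In FPKM that increase was 2.37 times with both libraries, from a mean of 0.72 to 1.70. Apart from leaving out single libraries, the other settings gave 0.62 to 1.30 for PRDX1 with RANKL. They gave -2.61 to -1.62 for RANKL alone and 0.92 to 1.65 for the difference between the changes by PRDX1.

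Mcl1, whose short-lived protein is needed by many blood cells, was the most abundant survival gene in every library and moved little. It was at 103 and 101 FPKM in no PRDX1 + no RANKL, 122 and 123 in PRDX1 + no RANKL, 126 and 126 in no PRDX1 + RANKL, and 125 and 123 in PRDX1 + RANKL. The untreated group was lowest and the 3 treated groups lay within 5 FPKM of each other. The log2 fold changes were 0.26 for PRDX1 alone (adjusted p = 0.00100) and 0.31 for RANKL alone (adjusted p = 1.07e-04), both under the 1.5-fold limit. With the other agent present they were -0.03 for PRDX1, with a 95% confidence interval of -0.12 to 0.07, and 0.02 for RANKL, with an interval of -0.07 to 0.11.

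Bax and Bak1, the effectors, stayed nearly level. Bax was at 163 and 153 FPKM in no PRDX1 + no RANKL, 135 and 132 in PRDX1 + no RANKL, 137 and 140 in no PRDX1 + RANKL, and 141 and 128 in PRDX1 + RANKL. Its untreated libraries were highest, and PRDX1 + RANKL overlapped both other treated groups, which did not overlap each other, with log2 fold changes of -0.24 for PRDX1 alone (adjusted p = 0.00967) and -0.19 for RANKL alone (adjusted p = 0.0143), both under the 1.5-fold limit. Bak1 ran from 89.7 to 99.8 FPKM over all 8 libraries. Its 4 fold changes lay between -0.09 and -0.02 on the log2 scale, with adjusted p from 0.218 to 0.774, and the 95% confidence intervals, all of the same width, had their lowest bound at -0.21 (RANKL with PRDX1) and their highest at 0.10 (PRDX1 without RANKL). Bak1 lies across Ggnbp1 on the other strand, and reads were counted without regard to strand, but the row of Ggnbp1 averaged 0.275 FPKM.

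Bid, the BH3-only gene whose product links death receptors to mitochondria once a caspase has cut it, fell with either agent given alone, and adding the other agent gave no further change past the limits. Its FPKM was 47.2 and 42.7 in no PRDX1 + no RANKL, 27.1 and 26.4 in PRDX1 + no RANKL, 26.3 and 23.7 in no PRDX1 + RANKL, and 23.5 and 24.4 in PRDX1 + RANKL. The untreated libraries stood alone at the top, while the 2 groups with RANKL overlapped each other. PRDX1 lowered Bid by a log2 fold change of -0.73 without RANKL (SE 0.07, adjusted p = 4.10e-05) and RANKL by -0.82 without PRDX1 (SE 0.07, adjusted p = 3.41e-06). With the other agent present the values were -0.06 for PRDX1 (95% confidence interval -0.21 to 0.10) and -0.15 for RANKL (interval -0.30 to 0.00). The difference between the changes by PRDX1 was 0.67 (SE 0.10, adjusted p = 8.33e-04). In GENCODE M21, exons of Bid share 628 bases with exons of Bcl2l13 on the other strand, so that some reads cannot be assigned. The row of Bcl2l13 had a mean of 7.12 to 10.1 FPKM and log2 fold changes of -0.18 for PRDX1 alone and 0.27 for RANKL alone. Among the other members, exons of Bcl2 share 558 bases with D630008O14Rik on the other strand. Those of Bcl2a1b share 401 bases with Gm29094, and those of Bax 192 with Gm45808, on the same strand. These overlapping genes have no row of their own, so their part in the reads could not be checked.

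Bcl2l11, which encodes BIM, was the only member of the BH3-only pair with higher levels after treatment, by amounts that did not reach the limits. It was at 7.06 and 8.72 FPKM in no PRDX1 + no RANKL, 9.91 and 10.2 in PRDX1 + no RANKL, 11.7 and 12.5 in no PRDX1 + RANKL, and 12.4 and 12.3 in PRDX1 + RANKL. Both untreated libraries were lowest and the 2 groups with RANKL overlapped. The log2 fold change by RANKL alone was 0.57 (SE 0.09, adjusted p = 3.13e-04), a 1.48-fold change that lay just below the 1.5-fold limit, and 4 of the 18 other settings put it above. PRDX1 alone gave 0.32 (adjusted p = 0.0208). The ratio of Bcl2l1 to Bcl2l11 in FPKM was 7.78 ± 0.69 (SD, n = 2) in no PRDX1 + no RANKL, 6.04 ± 0.058 in PRDX1 + no RANKL, 0.719 ± 0.039 in no PRDX1 + RANKL and 1.98 ± 0.032 in PRDX1 + RANKL, a description that was not tested.

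**Figure D2:**
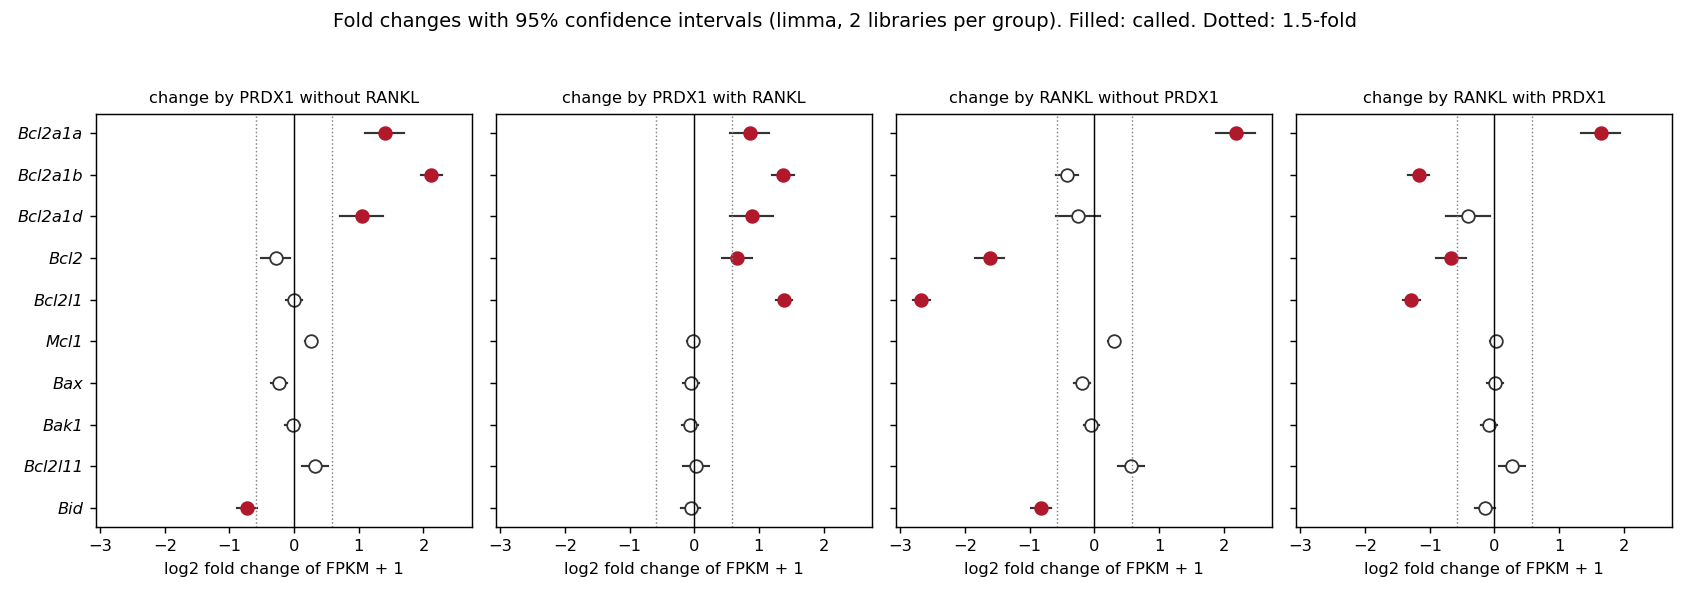
Log2 fold change of FPKM + 1 (x axis) for the 10 genes (y axis) by PRDX1 without and with RANKL and by RANKL without and with PRDX1, with bars for the 95% confidence interval. Filled points are called and dotted lines mark the 1.5-fold limit. PRDX1 alone moves the Bcl2a1 copies up and Bid down, PRDX1 with RANKL also moves Bcl2l1 (1.39) and Bcl2 (0.66) up, and RANKL moves Bcl2l1 down by 2.67 without PRDX1 and by 1.28 with it.

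Counted over the 10 genes, PRDX1 without RANKL raised 3 (the Bcl2a1 copies) and lowered 1 (Bid), where 3.8% and 1.99% of the 11700 genes tested were called higher and lower. PRDX1 with RANKL raised 5 (the copies, Bcl2 and Bcl2l1) and lowered 0, against 6.03% and 4.17% of all genes. The lowered count of 0 was 0 also at an unadjusted limma p under 0.05, since the 5 other genes had p of at least 0.246, and it was 0 by voom as well. RANKL without PRDX1 raised 1 (Bcl2a1a) and lowered 3 (Bcl2, Bcl2l1 and Bid), against 11.8% and 9.96%. RANKL with PRDX1 raised 1 (Bcl2a1a) and lowered 3 (Bcl2a1b, Bcl2 and Bcl2l1), against 4.52% and 3.98%. For the interaction 4 of the 10 genes were called (Bcl2a1b, Bcl2, Bcl2l1 and Bid), against 8.85% of all genes. The copies share reads and so are not 3 separate results: with their reads in 1 row, the count for PRDX1 was 2 without RANKL and 3 with it. For RANKL the count was then 3 without PRDX1 and 3 with it, and the summed row gave -0.10 (adjusted p = 0.201) and -0.81 (adjusted p = 9.24e-06). The raised gene Bcl2a1a, which passed the filter on low values through the 3 treated groups only, was then not counted by itself. In all, 6 members were called in at least 1 of the 4 comparisons, and Mcl1, Bax, Bak1 and Bcl2l11 in none, where 26.5% of all genes tested were called in at least 1. The comparisons share groups, so the counts are not independent of each other. The members were also chosen with earlier results of these data known, so the counts beside the all-gene shares are descriptions. The median log2 fold change of the members was 0.13, 0.34, -0.22 and -0.12 in the order given, beside -0.04, -0.06, 0.10 and 0.07 over all genes tested.

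The make-up of the survival genes differed between the groups. Because FPKM is per length, the 6 survival genes among the members can be added up within a library. Bcl2l2, a survival gene that is not a member (below), is left out, at a mean of 8.52 to 11.5 FPKM. The sum of the 6 was 188 and 195 FPKM in no PRDX1 + no RANKL, 283 and 283 in PRDX1 + no RANKL, 158 and 158 in no PRDX1 + RANKL, and 205 and 203 in PRDX1 + RANKL. The sum of Bax and Bak1 stayed between 220 and 262 FPKM. The ratio of the survival sum to the effector sum was 0.747 ± 0.039 (SD, n = 2) in no PRDX1 + no RANKL, 1.23 ± 0.031 in PRDX1 + no RANKL, 0.676 ± 0.024 in no PRDX1 + RANKL and 0.906 ± 0.024 in PRDX1 + RANKL. The groups did not overlap in this ratio, which weighs all transcripts alike and says nothing of protein.

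The largest share after that of Mcl1 differed between the groups. Bcl2l1 made up 31.8% ± 1.2 (SD, n = 2) of the survival sum in no PRDX1 + no RANKL, and the Bcl2a1 copies 12.7% ± 0.92. In PRDX1 + no RANKL this order was turned, with 21.5% ± 0.32 for Bcl2l1 and 34.1% ± 0.60 for the copies. With RANKL alone Mcl1 made up 79.8% ± 0.24, Bcl2l1 5.51% ± 0.057 and the copies 14.2% ± 0.42. In PRDX1 + RANKL the copies stood at 26.5% ± 0.80, Bcl2l1 at 12.0% ± 0.24 and Mcl1 at 60.7% ± 0.56. Bcl2 was at most 2.23% ± 0.15 of the sum in any group.

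**Figure D3:**
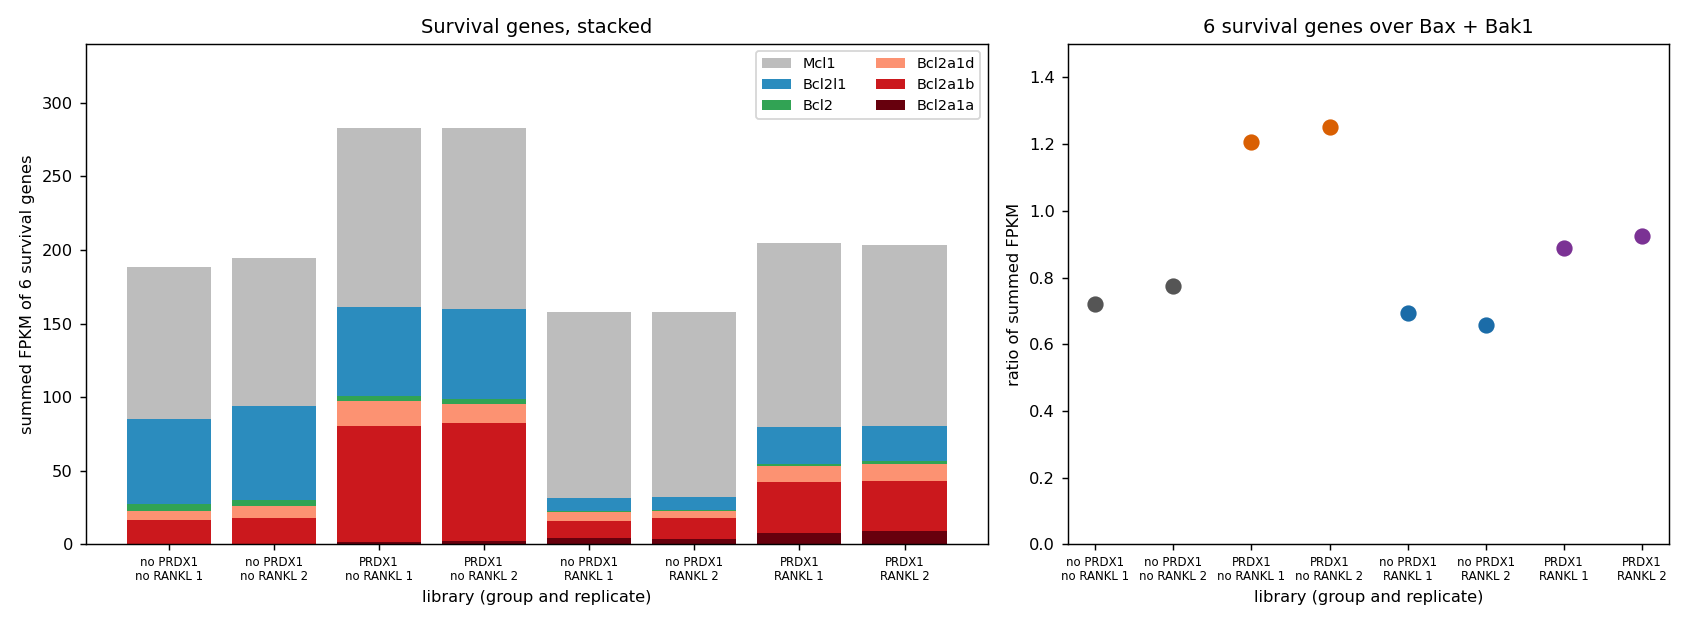
Left, FPKM of the 6 survival genes stacked for each of the 8 libraries (y axis, linear from 0). Right, their sum divided by that of Bax and Bak1 in the same libraries. The red Bcl2a1 part is largest in PRDX1 + no RANKL, the blue Bcl2l1 part smallest in no PRDX1 + RANKL, and the ratio lies between 0.658 and 1.25.

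Of the 16 other BCL2 family genes on the list, 11 were tested. PRDX1 changed 1 of them without RANKL and 3 with RANKL, each lower, while RANKL raised 3 and lowered 1 in either setting. One of the raised genes, Bcl2l15, passed the filter on low values only through the groups with RANKL. The shares of all genes called lower by PRDX1 were 1.99% and 4.17%, and those called by RANKL were 11.8% higher and 9.96% lower without PRDX1 and 4.52% and 3.98% with it. With the filter raised to 5 FPKM on average, the 4 counts called in either direction were 0, 1, 1 and 1, and by voom the first of them was 2. Their median log2 fold change was -0.18 and -0.20 for PRDX1 without and with RANKL, and 0.10 and 0.00 for RANKL without and with PRDX1, beside the all-gene medians given above. Hrk and Bcl2l10 had 0 reads in all libraries, and Bcl2a1c, Bok and Bcl2l14 did not reach the mean FPKM of 0.5.

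Pmaip1, which encodes NOXA, the BH3-only partner of MCL1 and A1, rose with RANKL both without and with PRDX1. It was at 4.13 and 4.55 FPKM in no PRDX1 + no RANKL, 3.17 and 3.87 in PRDX1 + no RANKL, 15.3 and 16.4 in no PRDX1 + RANKL, and 8.32 and 8.45 in PRDX1 + RANKL. RANKL raised it by a log2 fold change of 1.66 without PRDX1 (SE 0.09, adjusted p = 1.46e-07) and 1.06 with it (adjusted p = 1.29e-05), and PRDX1 lowered it by -0.85 with RANKL (adjusted p = 4.45e-05). The difference between the changes by RANKL was -0.60 (adjusted p = 0.00741), close to the 1.5-fold limit. Its call was lost under quantile normalization (-0.56), under upper quartile scaling (-0.58), and without the second untreated library (-0.54), the first library of PRDX1 + no RANKL (-0.49) or the second of no PRDX1 + RANKL (-0.55). Bmf, a BH3-only gene linked to loss of anchorage, was at 0.999 and 1.03, 0.960 and 1.11, 4.88 and 5.47, and 2.64 and 2.65 FPKM in the same order of groups. RANKL raised Bmf by 1.61 without PRDX1 (adjusted p = 2.36e-07), and PRDX1 lowered it by -0.76 with RANKL (adjusted p = 1.26e-04).

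Bcl2l15, a little-studied member, was nearly silent without RANKL, with 4 reads in no PRDX1 + no RANKL and 5 in PRDX1 + no RANKL. It was at 10.9 and 11.5 FPKM in no PRDX1 + RANKL and 3.03 and 3.76 in PRDX1 + RANKL, a log2 fold change by PRDX1 of -1.48 (adjusted p = 8.22e-06). Bik, a BH3-only gene of the endoplasmic reticulum, went the other way and was highest in the untreated libraries. It was at 3.03 and 4.47 FPKM in no PRDX1 + no RANKL, 1.36 and 1.36 in PRDX1 + no RANKL, 0.587 and 0.666 in no PRDX1 + RANKL, and 0.301 and 0.535 in PRDX1 + RANKL. Either agent lowered Bik when given alone, PRDX1 by -0.99 (adjusted p = 7.72e-04) and RANKL by -1.53 (adjusted p = 9.90e-06).

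The other listed members did not pass the limits. Bbc3, which encodes PUMA, was at 6.43 to 7.46 FPKM in both groups without PRDX1 and at 4.66 to 4.99 in both groups with it. Its log2 fold changes by PRDX1 were -0.41 and -0.46 (adjusted p = 0.00399 and 0.00120), under the 1.5-fold limit. Bad, a BH3-only gene set by growth factor signals, was at 36.0 and 37.2 FPKM in no PRDX1 + RANKL and between 23.9 and 27.9 in all other libraries. Bcl2l2, which encodes the survival protein BCL-W, had a mean of 8.52 to 11.5 FPKM in the 4 groups, Bnip3 10.8 to 13.2, Bnip3l 21.9 to 25.8, Bcl2l12 5.94 to 8.92 and Bcl2l13 7.12 to 10.1.

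**Figure D4:**
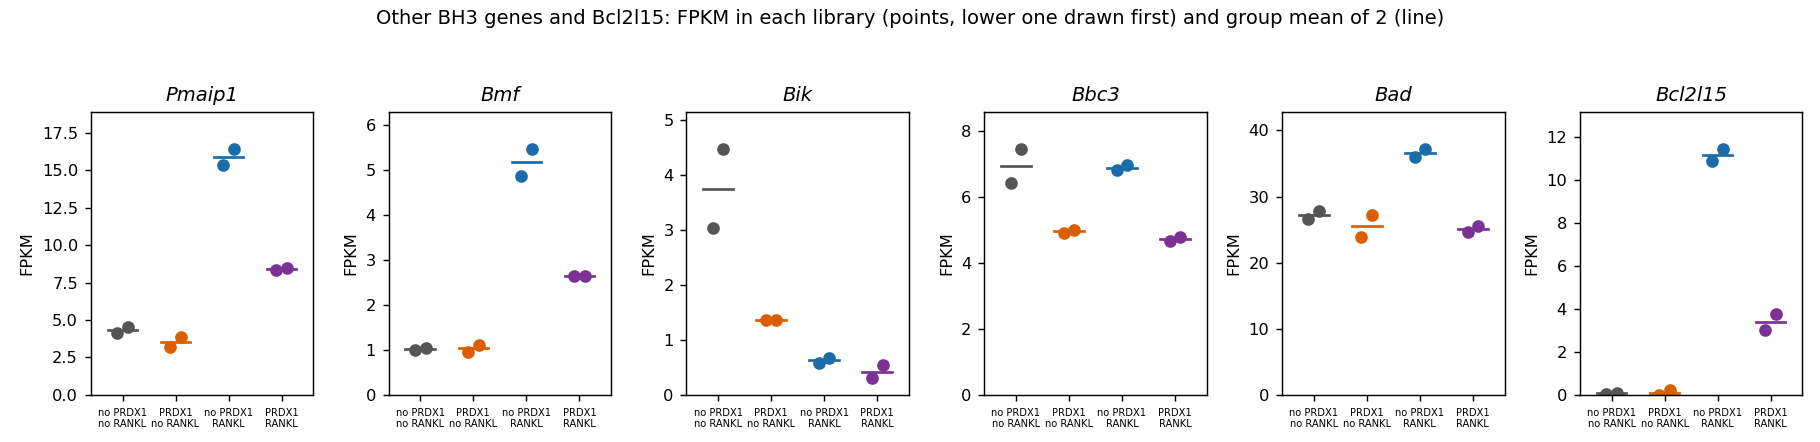
FPKM (y axis, linear from 0) of 5 other BH3-only genes and Bcl2l15 in the 4 groups (x axis), with a point for each library and a line at the mean of 2. Pmaip1, Bmf and Bcl2l15 are highest in no PRDX1 + RANKL (15.9, 5.17 and 11.2 FPKM on average) and lower in PRDX1 + RANKL (8.39, 2.64 and 3.39 FPKM), and Bik is highest in the untreated libraries.

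Downstream of the family, all 20 listed genes of the mitochondrial caspase route were tested. RANKL changed 5 without PRDX1 and 2 with it, each higher, where 11.8% and 4.52% of all genes were called higher. PRDX1 changed 1 without RANKL and 2 with RANKL, each lower, against 1.99% and 4.17% of all genes, and the count with RANKL ran from 1 to 3 over the alternatives, with 1 when the first library of no PRDX1 + RANKL was left out. The inhibitor of apoptosis gene Birc3 had the largest change, from a mean of 8.99 FPKM in no PRDX1 + no RANKL to 80.1 in no PRDX1 + RANKL (log2 fold change 3.03, adjusted p = 1.34e-09), with 51.8 FPKM in PRDX1 + RANKL. Its relative Birc2 rose with RANKL alone from 7.77 to 16.0 FPKM (0.95, adjusted p = 4.64e-06), and Cycs, which encodes cytochrome c, from 27.3 to 48.2 FPKM (0.80, adjusted p = 9.87e-07). Apaf1, the scaffold that cytochrome c binds, was at a mean of 13.9 and 13.6 FPKM without RANKL and 20.5 and 21.1 FPKM with it, and was called with PRDX1 (0.60, adjusted p = 2.42e-05) but not without (0.53), a difference that did not pass (0.06, adjusted p = 0.632). Under both other scalings that call of Apaf1 was lost (0.53 and 0.54), as was that of Birc3 for PRDX1 with RANKL (-0.62, and -0.57 under either scaling). PRDX1 lowered Casp6, an executioner caspase, with RANKL (-0.70, adjusted p = 1.83e-05) and Birc5, which encodes survivin and is also used in cell division, without RANKL (-0.65, adjusted p = 5.51e-06).

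In the death receptor route, which reaches the family through BID, 16 of 17 listed genes were tested. PRDX1 changed 4 without RANKL and 2 with RANKL, each higher, where 3.8% and 6.03% of all genes were called higher. Tnf was among them in both, at a mean of 22.3 FPKM in no PRDX1 + no RANKL, 40.0 in PRDX1 + no RANKL, 13.3 in no PRDX1 + RANKL and 33.5 in PRDX1 + RANKL (log2 fold changes by PRDX1 of 0.81 and 1.27, adjusted p = 8.98e-06 and 1.89e-07). Tnfrsf1b, a TNF receptor, also rose in both, at 29.7, 49.2, 20.4 and 52.7 FPKM. RANKL raised 5 and lowered 1 (Tnf) without PRDX1, and changed 4 with it, each higher, against 11.8% of all genes higher and 9.96% lower without PRDX1 and 4.52% higher with it. Traf1, a receptor adaptor, went from 1.25 to 60.4 FPKM with RANKL alone (4.77, adjusted p = 2.71e-11), and Traf2, which shares its receptors, from 8.32 to 21.4 FPKM (1.27, adjusted p = 4.45e-07). Fas, the prototype death receptor, had a mean of 4.24 and 4.05 FPKM without RANKL and 12.6 and 12.3 with it (1.39 in either setting, adjusted p = 1.27e-05 and 3.79e-05). Tnfaip3, which encodes the NF-κB inhibitor A20, rose by 0.98 with PRDX1 alone (adjusted p = 1.62e-05) and by 1.32 with RANKL alone (adjusted p = 3.41e-07).

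Among 19 tested genes of factors known to set levels of the family, PRDX1 changed 1 in either setting, which was higher, against 3.8% and 6.03% of all genes called higher. The count with RANKL was 3 without the first library of no PRDX1 + RANKL and 3 under quantile normalization. The gene called in both settings was Ddit3, which encodes the stress factor CHOP, at 15.8 FPKM in no PRDX1 + no RANKL, 38.5 in PRDX1 + no RANKL, 13.7 in no PRDX1 + RANKL and 29.1 in PRDX1 + RANKL (1.23 and 1.03, adjusted p = 5.20e-07 and 7.90e-07). RANKL raised 3 and lowered 1 without PRDX1, and changed 2 with it, each higher, against 11.8% of all genes higher and 9.96% lower without PRDX1 and 4.52% higher with it. Trp53, the gene of p53, had a mean of 37.1 and 39.4 FPKM without RANKL and 65.6 in both groups with it, a log2 fold change of 0.80 without PRDX1 (adjusted p = 1.23e-05) and 0.72 with it (adjusted p = 7.65e-05). Myc rose by 1.09 with RANKL alone (adjusted p = 2.24e-07) and by 0.78 with PRDX1 (adjusted p = 8.19e-06). Mitf, a factor of the osteoclast lineage that can drive Bcl2, rose by 0.88 with RANKL alone (adjusted p = 5.44e-07) and had -0.01 with PRDX1, and that difference passed (-0.89, adjusted p = 4.70e-05).

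For the 5 members whose group means spanned at least 1 on the log2 scale, the genes with the most similar pattern over the 8 libraries were looked up among 1522 genes with such a span. The correlations below rest on 4 groups of 2 libraries that share depth and treatment, and are descriptions. Bcl2l1 was most like Etv1 (Pearson r = 0.9997), Nceh1 (0.999) and Cndp2 (0.999), and all 3 had their lowest level in no PRDX1 + RANKL and an intermediate one in PRDX1 + RANKL. Etv1, for example, was at 4.58, 4.69, 1.53 and 2.82 FPKM in the order of groups used above. Bcl2 was most like Cd93 (0.996), Milr1 (0.996) and Hpgds (0.995). Bcl2a1b was most like Gm5150 (0.991) and Plin2 (0.990). Bcl2a1d was most like Tgif1 (0.973), Serpinf1 (0.972) and Plac8 (0.970), and Bcl2a1a like Enpp4 (0.999), Slc13a3 (0.995) and Kdr (0.992). No gene was named for more than 1 member.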

How the data were processed

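RNA of 8 mouse OCP cell libraries was sequenced by the authors as 100-base paired reads, aligned with HISAT2 and counted on RefSeq exons of mm10 with HOMER on both strands, 1 transcript per gene, and deposited as FPKM. DESeq2 is named in the submitters' notes. Versions are not given in the sources used here. Each library had a step value of which FPKM multiplied by length was a whole number of times (within at most 0.1 read) for 99.97% to 100% of low genes, which gave the reads quoted. The table held 0 columns of other samples. The 11700 genes that averaged 0.5 FPKM or more were fitted as log2(FPKM + 1), using limma 3.58.1 (R 4.3.3), with an intensity trend and all 4 groups in 1 model, on 4 residual degrees of freedom, and adjusted over all of them. The fit was checked on simulated data. The members and the 14 gene lists were chosen with earlier results of these data known. Genes named were all members, the other family genes, up to 3 called genes of largest change per pathway list and comparison, the 3 genes most correlated with each member of wide span (1 of these is not reported here), and the markers. Sequences came from the GRCm38 genome with GENCODE M21 and from RefSeq. Alternatives were another pseudocount, filters, scaling, voom on the recovered reads, fits of fewer libraries, a replicate block, summed Bcl2a1 copies and leaving out each library.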

Additional observations from a re-analysis of the deposited data

Results flagged for a closer look

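For 4 of the 10 genes the change by PRDX1 differed between the settings without and with RANKL, by limma's interaction test. Of all genes tested, 8.85% were called by that test. For Bcl2l1 the change was larger with RANKL by 1.39 on the log2 scale (adjusted p = 2.81e-06), and both libraries of PRDX1 + RANKL lay above both of no PRDX1 + RANKL, while the groups without RANKL overlapped. For Bcl2 the difference was 0.94 (adjusted p = 0.00124), between a change of -0.29 without RANKL and 0.66 with it. For Bid it was 0.67 (adjusted p = 8.33e-04), between -0.73 and -0.06. For Bcl2a1b it was -0.75 (adjusted p = 7.30e-04), between increases of 2.12 and 1.37. Groups of 2 libraries are too small to look for single libraries far from the rest.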

How the results depend on the processing

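Over the 10 genes, 5 comparisons and 18 alternatives, 855 results stayed on their side of the limits, 8 gained a call, 2 lost one and 0 called results changed direction, while some values near 0 that were not called changed sign. The calls lost were those of Bcl2a1a by PRDX1 with RANKL at a pseudocount of 0.1 (0.99) and of Bcl2 without the second no PRDX1 + RANKL library (0.54). Calls were gained by Bcl2l11 (RANKL alone, 4 settings, up to 0.70), by Bcl2a1a (interaction, 3 settings, down to -3.51) and by Bcl2a1d (RANKL with PRDX1, 1 setting, -0.62). At a mean FPKM of at least 5, Bcl2 and Bcl2a1a are no longer tested: 3 members were called for PRDX1 with RANKL, 2 for RANKL without PRDX1 and 2 for RANKL with PRDX1. Over all genes 805, 1756 and 667 were called in these comparisons, in place of 1193, 2548 and 995. For PRDX1 without RANKL, 448 genes were called in place of 678. With the Bcl2a1 copies in 1 row, 2 members were called for PRDX1 without RANKL and 3 with RANKL, since the copies count once. For RANKL, 3 were then called without PRDX1 and 3 with it. The replicate numbers showed little sign of pairing (correlation of same-numbered deviations 0.0085 to 0.096), which does not tell whether animals or days were shared. With the replicate block the members called were 4, 5, 4, 4 and 4. The calls over all genes were then 676 for PRDX1 without RANKL, beside 678. For the pathway genes, whose alternatives were chosen after seeing the data, 5453 results stayed on their side of the limits, 29 gained and 22 lost a call. Pmaip1 and Bik lost their interaction calls in several settings, and Bcl2l15 at a pseudocount of 0.1 (-1.70, adjusted p = 0.0766) and by voom (-1.17, adjusted p = 0.416). Where an agent was measured against 2 libraries and 1 was left out, the lone library is assumed to vary like the others.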
